A study of Mus musculus with 8 samples.

Results

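The liver transcripts described here are 7 collagen chain genes, *Col8a1*, *Col22a1*, *Col16a1*, *Col12a1*, *Col20a1*, *Col15a1* and *Col27a1*, out of the 24940 genes counted and the 44 collagen chain genes among them. They were taken by gene symbol. The list was selected on results of these same 8 livers, with the CPM and fold changes between genotypes known. Their differences between genotypes are therefore given as a description. A call given for any of them is its class in the fit of all tested genes, not a test of a gene chosen beforehand. RNA was sequenced from livers of 4 FXRKO males, which carry floxed *Bcl6* alleles without Cre and are labelled as homozygous for loss of FXR (*Nr1h4*), a deletion in the whole body, and of 4 BCL6LKOFXRKO males, which carry the same alleles and also Alb-Cre. All were on a C57BL/6 background, no treatment is named, feeding was either free or ended by a short fast, and their ages are not given in the sources used here. The Alb promoter drives Cre in hepatocytes, so *Bcl6* should remain intact in stellate, endothelial and immune cells. Counts from whole liver cannot show which cells kept it. The comparison asks what loss of hepatocyte *Bcl6* adds to loss of FXR. Loss of *Bcl6* and the presence of Cre cannot be told apart in it.

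Collagens are secreted trimers whose chains carry long stretches of Gly-X-Y, glycine followed by 2 other residues over and over, which wind into a triple helix. Beside the fibrillar collagens I and III that dominate hepatic scar tissue, liver matrix holds chains that build sheets, coat fibrils or line vessels. Collagen VIII, the product of *Col8a1*, is a short network-forming collagen of vessel walls and of Descemet's membrane in the cornea. Collagens XII, XVI, XX and XXII belong to the FACIT group, whose interrupted helices attach to the surface of fibrils or sit at tissue junctions. Collagen XV is a multiplexin of basement membrane zones around small vessels, with an endostatin-like end, and collagen XXVII is grouped with the fibrillar chains.

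Depth was similar between genotypes, with 7586241 to 10056721 counts on genes in the FXRKO livers and 9156775 to 11839503 in the BCL6LKOFXRKO livers. A floor of 3 counts corresponded to between 0.272 and 0.374 CPM (counts divided by the TMM-adjusted size of each library), covering counting error only. The targeted *Bcl6* lay between 21.1 and 65.1 CPM in FXRKO livers and between 4.61 and 11.9 CPM in BCL6LKOFXRKO livers, without overlap. *Nr1h4*, whose product both genotypes should lack, was still counted in every liver, at 59.9 ± 2.46 CPM in FXRKO and 43.4 ± 3.69 CPM in BCL6LKOFXRKO livers (SD, n = 4), again without overlap (log2 fold change -0.46, edgeR adjusted p = 0.00498, not called). The counts are summed over the whole gene and do not show which exons were read, so they cannot check the loss of FXR that the labels give. *Alb*, which defines hepatocytes, took 4.04% to 5.16% of the counts in FXRKO livers and 11.9% to 13.2% in BCL6LKOFXRKO livers. Scaling to total counts alone moved the log2 fold change of the median gene by -0.16 relative to TMM. Nothing in the labels says how the livers were batched.

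The coding sequences show what the 7 chains share and how they differ. Glycine is encoded by codons that start with GG, so an uninterrupted triple helix appears as such a codon, 2 other codons, and the next such codon, and runs of at least 10 triplets were found in all 7. *Col27a1* had the longest, 217 triplets in a row beginning at codon 673, with 53.5% of its 1844 codons in such runs. *Col22a1* followed with 113 triplets and 62.4% of 1612 codons. *Col8a1* had 61 triplets at most and 52.4% of 743 codons. Its whole transcript has only 4 exons, whereas that of *Col16a1*, with 14 separate runs, has 70. In *Col12a1*, *Col20a1* and *Col15a1* the runs covered 7.6%, 11.4% and 15.8% of the codons, and the greater part of those chains lies outside such runs. The first 12 triplets of the longest run are shown for *Col8a1* and *Col22a1*, which were near the floor in FXRKO livers, and for *Col27a1*, the member called lower, from GENCODE transcripts in mm10. Capitals mark the glycine codon that opens each triplet, and glycine codons at other positions are in lower case. In *Col22a1* and *Col27a1* the stretch is spliced from several exons within the span given (exons 45 to 46 and 6 to 8).
*Col8a1* chr16:57627985-57628092, minus strand: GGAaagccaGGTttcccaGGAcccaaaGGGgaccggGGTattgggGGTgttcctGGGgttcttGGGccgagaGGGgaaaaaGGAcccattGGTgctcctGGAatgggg
*Col22a1* chr15:71857287-71861049, minus strand: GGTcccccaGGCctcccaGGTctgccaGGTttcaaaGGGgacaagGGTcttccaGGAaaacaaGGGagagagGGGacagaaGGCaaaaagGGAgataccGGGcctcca
*Col27a1* chr4:63244040-63253688, plus strand: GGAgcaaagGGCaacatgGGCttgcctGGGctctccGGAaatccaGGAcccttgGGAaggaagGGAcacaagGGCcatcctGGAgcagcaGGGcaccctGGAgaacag

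Counts came from the exons of 1 RefSeq transcript for each gene, without strand in the counting command, so overlapping exons matter. No other annotated exon overlapped those of *Col8a1*, *Col27a1*, *Col12a1* or *Col16a1*. Exons of other genes overlapped 16 bases of *Col22a1* and 14 of *Col15a1*, both on the opposite strand, and 79 bases of *Col20a1*. The *Col22a1* transcript in the count table, 6062 bases long, is shorter than the 8809 bases of the matching GENCODE transcript, and reads outside it were not counted.

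Of the 7 genes, 3 were called higher and 1 lower in BCL6LKOFXRKO livers, at an adjusted p under 0.05 and a log2 fold change beyond 0.5 in edgeR's quasi-likelihood fit of 12340 genes. In that fit 14.1% of all tested genes were called higher and 9.84% lower. All 7 passed the expression filter, but *Col8a1* and *Col22a1* did so only through the BCL6LKOFXRKO livers and therefore had to differ. The median log2 fold change of the 7 was 0.41, against 0.01 over all tested genes. In 4 of the 7 the livers of the genotypes did not overlap, as in 31.3% of all tested genes.

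*Col8a1* (NM_007739, mm10 chromosome 16 from 57624256 to 57754737, minus strand) was all but absent in FXRKO livers, at 0.312, 0.749, 0.215 and 0.472 CPM in livers 1 to 4, from 3, 6, 2 and 5 counts. It stood at 19.3, 15.1, 18.8 and 11.7 CPM in the BCL6LKOFXRKO livers, from 192, 125, 193 and 129 counts. The lowest BCL6LKOFXRKO liver was far above the highest FXRKO liver. The means were 0.437 ± 0.234 and 16.2 ± 3.54 CPM (SD, n = 4 in each genotype), and the log2 fold change was 5.20 ± 0.30 (standard error), a fold of 36.9. That error was derived from edgeR's quasi-likelihood F statistic and is approximate at so few FXRKO counts. DESeq2 gave 5.23 ± 0.42 (standard error). Collagen VIII can also contain the chain of *Col8a2*, which has a nearly equal layout, with 60 triplets in its longest run. *Col8a2* did not pass the expression filter and had between 3 and 8 counts in every liver of both genotypes, at 0.548 ± 0.238 CPM in FXRKO and 0.512 ± 0.22 CPM in BCL6LKOFXRKO livers (SD, n = 4). With so few counts a small difference in *Col8a2* was not detectable at this depth.

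*Col22a1* (NM_027174, chromosome 15 from 71798476 to 72034227, minus strand), known from junctions such as those between muscle and tendon, had 1, 1, 0 and 0 counts in the FXRKO livers. In the BCL6LKOFXRKO livers it had 183, 90, 143 and 248 counts, or 18.4, 10.9, 13.9 and 22.5 CPM. It was thus at or below the floor in every FXRKO liver and well counted in every BCL6LKOFXRKO liver. With 2 counts in one group and 664 in the other, the ratio of the summed counts, each divided by the summed TMM-adjusted library size of its group, was 315, with a 95% Clopper-Pearson interval from 87 to 2610 that covers counting error only. BCL6LKOFXRKO liver 4 had the highest *Col22a1* and the lowest *Col8a1* of its group, so the order of the livers was not the same for both genes.

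*Col16a1* (NM_028266, chromosome 4 from 130047840 to 130099277, plus strand), a FACIT chain, was at 1.77, 2.37, 2.04 and 3.02 CPM in FXRKO livers and at 4.63, 4.73, 3.21 and 6.17 CPM in BCL6LKOFXRKO livers. All BCL6LKOFXRKO livers were above all FXRKO livers, although liver 3 of the former was close to liver 4 of the latter. The means were 2.3 ± 0.542 CPM and 4.68 ± 1.21 CPM (SD, n = 4), and its log2 fold change was 1.02 ± 0.26 (standard error).

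*Col15a1* (NM_009928, chromosome 4 from 47208012 to 47313165, plus strand) was the steadiest of the 7. The FXRKO livers had 15.7, 15.7, 15.1 and 18.6 CPM and the BCL6LKOFXRKO livers 20, 25.2, 20.8 and 20.9 CPM. The genotypes did not overlap, and the coefficients of variation were 9.65% and 10.8%. The log2 fold change of 0.41 ± 0.13 (standard error) was below the threshold of 0.5, so the gene was not called, and it became 0.25 with scaling to total counts alone.

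*Col27a1* (NM_025685, chromosome 4 from 63215412 to 63334990, plus strand), a fibrillar chain best known from cartilage, was the only collagen chain called lower. It was at 8.63, 16.3, 21.5 and 18 CPM in FXRKO livers and at 8.35, 5.94, 10.6 and 9.43 CPM in BCL6LKOFXRKO livers. FXRKO liver 1 lay within the range of the BCL6LKOFXRKO livers, and the other FXRKO livers lay above it. The means were 16.1 ± 5.43 and 8.58 ± 1.99 CPM (SD, n = 4), and the log2 fold change was -0.90 ± 0.26 (standard error). The call was lost without FXRKO liver 3 (log2 fold change -0.74), without FXRKO liver 4 (-0.84) or without BCL6LKOFXRKO liver 4 (-0.95).

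*Col12a1* and *Col20a1*, both FACIT chains, were not called. *Col12a1* (NM_001290308, chromosome 9 from 79598987 to 79718722, minus strand), which binds the surface of collagen I fibrils, was at 2.08, 2.62, 1.93 and 2.36 CPM in FXRKO livers and at 1.61, 2.06, 1.46 and 0.816 CPM in BCL6LKOFXRKO livers. BCL6LKOFXRKO liver 2 reached into the FXRKO range, and the log2 fold change was -0.61 ± 0.30 (standard error). *Col20a1* (NM_028518, chromosome 2 from 180986535 to 181017540, plus strand) was at 1.45, 2.12, 1.18 and 0.756 CPM in FXRKO livers and at 1.51, 1.33, 0.778 and 1.09 CPM in BCL6LKOFXRKO livers. All BCL6LKOFXRKO livers lay within the FXRKO range, the log2 fold change was -0.21 ± 0.37 (standard error), and its sign turned to 0.05 without FXRKO liver 2. With 8 to 25 counts of either gene in each FXRKO liver and 8 to 17 in each BCL6LKOFXRKO liver, a small difference was not detectable at this depth.

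**Figure D1:**
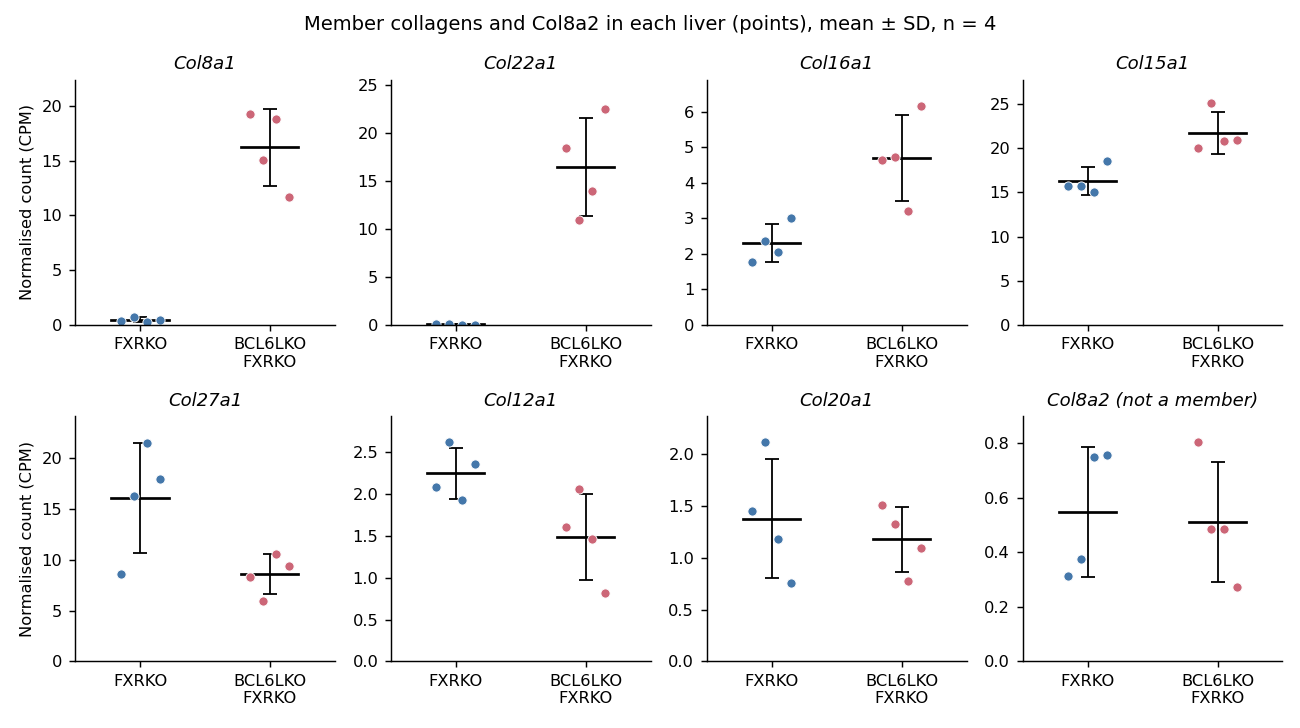
Normalized counts (CPM, each axis from 0) of the 7 member collagens and of *Col8a2* in each liver, with the mean as a line and the SD as a bar (n = 4 in each genotype). *Col8a1* and *Col22a1* sit near 0 in FXRKO livers and between 10.9 and 22.5 CPM in BCL6LKOFXRKO livers, *Col15a1* and *Col16a1* do not overlap between genotypes, and the other genes overlap.

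Levels of different genes were compared per transcript length, as RPKM from the deposited counts, the TMM library sizes and the length in the count table. In FXRKO livers *Col15a1* was highest at 3.09 ± 0.298 RPKM (SD, n = 4), above *Col27a1* at 2.13 ± 0.717 RPKM in all 4 livers, though the highest *Col27a1* liver (2.84 RPKM) nearly reached the lowest *Col15a1* liver (2.87 RPKM). *Col16a1* (0.448 RPKM) and *Col20a1* (0.332 RPKM) did not differ beyond their spread, nor did *Col20a1* and *Col12a1* (0.193 RPKM). *Col8a1*, at 0.0856 RPKM, and *Col22a1*, at 0.00943 RPKM, came last. In BCL6LKOFXRKO livers *Col15a1* was still highest, at 4.12 ± 0.446 RPKM (SD, n = 4), followed by *Col8a1* at 3.18 ± 0.694 RPKM and *Col22a1* at 2.71 ± 0.838 RPKM, whose ranges overlapped. In BCL6LKOFXRKO liver 1, *Col8a1* (3.78 RPKM) nearly equalled *Col15a1* (3.79 RPKM). *Col27a1* (1.13 RPKM) overlapped *Col16a1* (0.912 RPKM), and *Col20a1* (0.284 RPKM) and *Col12a1* (0.128 RPKM) came last.

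Together the 7 genes amounted to 5.06 to 6.98 RPKM in FXRKO livers and 11.7 to 13.1 RPKM in BCL6LKOFXRKO livers. *Col8a1* and *Col22a1* supplied 0.638% to 2.57% of that sum in FXRKO livers and 40.6% to 52% of it in BCL6LKOFXRKO livers. The other 5 members summed to 4.99 to 6.88 RPKM and 6.28 to 6.98 RPKM, and these ranges overlapped. Among the 44 collagen chain genes, ordered by mean RPKM, *Col8a1* stood at place 23 in FXRKO and 12 in BCL6LKOFXRKO livers, and *Col22a1* at places 33 and 14. *Col27a1* stood at places 12 and 18, and *Col15a1* at places 10 and 11. All 7 remained a small share of collagen chain transcripts, 1.96% to 2.61% of the summed RPKM in FXRKO and 3.43% to 4.34% in BCL6LKOFXRKO livers. *Col18a1*, the other multiplexin, alone stood at 213 and 216 RPKM, and the next chain at 8.65 (*Col3a1*) and 16.9 RPKM (*Col4a1*). *Col18a1* thus made up most of the summed RPKM, and both the size of these shares and their rise between genotypes depend on it. The share among the remaining chains was not computed.

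**Figure D2:**
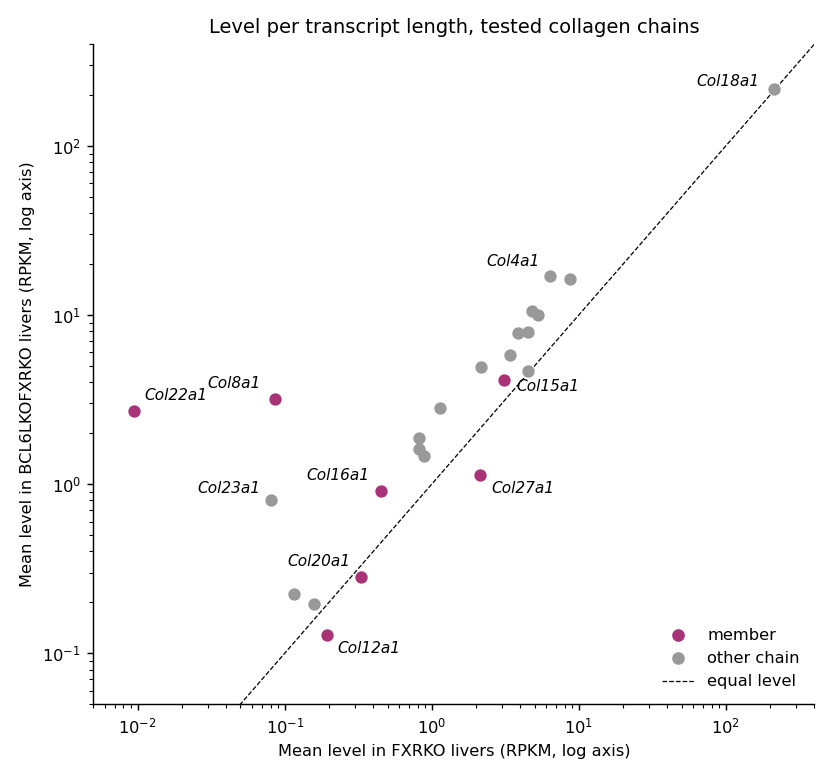
Mean level per transcript length (RPKM, log axes, n = 4 livers in each genotype) of the 24 tested collagen chains in FXRKO livers (horizontal) and BCL6LKOFXRKO livers (vertical), members in purple, with the line of equal level. *Col22a1* and *Col8a1* lie far above the line, *Col27a1* and *Col12a1* below it, and *Col18a1* on it at the top.

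The other chains, taken by symbol, set these values beside the rest of the family. Of 38 listed, 37 were in the count table and 17 were tested, of which 12 were called higher and 0 lower, and their median log2 fold change was 0.93. Over all tested genes, 14.1% were called higher and 9.84% lower. With TMM scaling all 17 fold changes were positive in edgeR, so 0 were lower at an unadjusted p under 0.05, and DESeq2 also called 0 lower. The basement membrane chains *Col4a1* and *Col4a2* rose from 41.9 ± 6.37 to 111 ± 25.5 CPM and from 30.6 ± 5.42 to 67 ± 13.4 CPM (SD, n = 4; adjusted p = 4.45e-05 and 0.000183 from edgeR). *Col23a1*, a transmembrane collagen, rose from 0.454 ± 0.306 to 4.55 ± 1.37 CPM (SD, n = 4; adjusted p = 6.62e-05 from edgeR), and it passed the expression filter only through the BCL6LKOFXRKO livers, so it had to differ. *Col18a1*, the closest relative of *Col15a1*, was not called, with a fold change near 0 on the log2 scale (0.02 ± 0.12, standard error; edgeR adjusted p = 0.921).

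**Figure D3:**
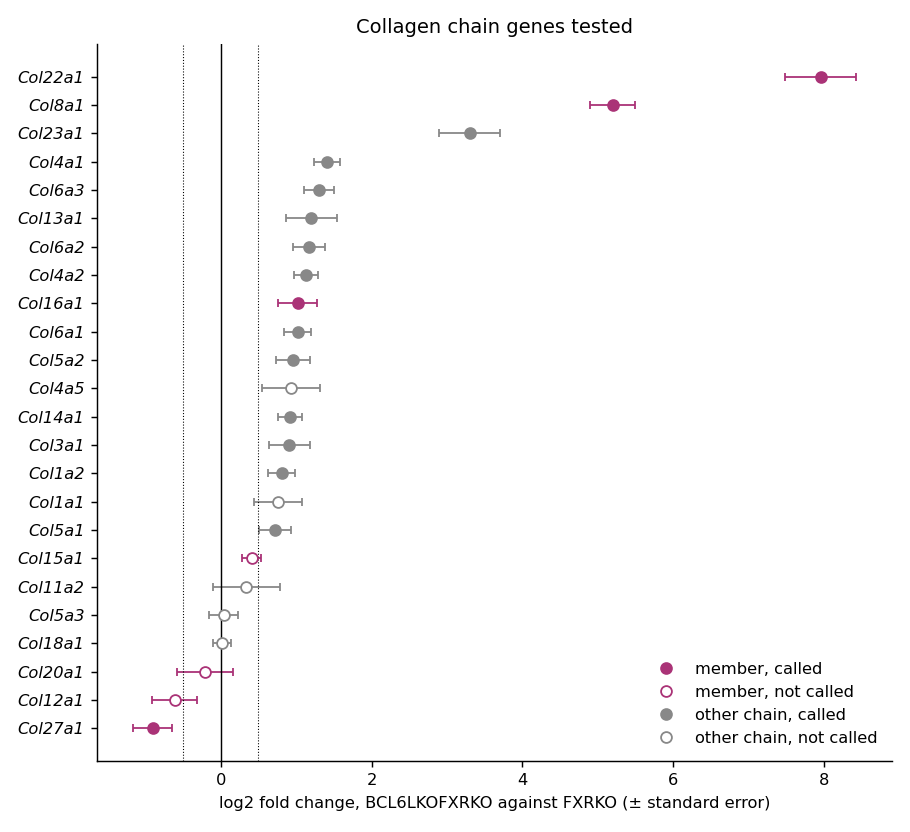
Log2 fold change with standard error of the 24 tested collagen chains, BCL6LKOFXRKO against FXRKO livers (n = 4 in each), members in purple and other chains in grey, filled where called, with dotted lines at a fold change of 0.5 in either direction. *Col22a1* (7.96, fitted over 2 FXRKO counts) and *Col8a1* (5.20) stand above all other chains, and *Col27a1* (-0.90) is lowest. The bars were derived from edgeR's quasi-likelihood F statistic. DESeq2 gave larger standard errors for *Col22a1* (1.03) and *Col8a1* (0.42).

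Newly made chains are hydroxylated and glycosylated in the endoplasmic reticulum, exported, trimmed and crosslinked. Of 36 genes of these steps, 29 were tested, 7 were called higher and 3 lower, and the median log2 fold change was 0.27. *Colgalt2*, which adds galactose to collagen hydroxylysine, rose from 1.3 ± 0.715 to 19 ± 2.59 CPM (SD, n = 4; adjusted p = 4.39e-07 from edgeR). It reached the level of the expression filter in 2 FXRKO and 4 BCL6LKOFXRKO livers. It thus passed the filter through the group where it was high, and its p-value is to be read with that limit. *Adamts2*, which removes the N-terminal propeptide of fibrillar procollagens, and *Pcolce*, which enhances removal of the C-terminal propeptide, rose by 1.31 and 1.02 on the log2 scale (adjusted p = 0.000679 and 0.00252 from edgeR). *Bmp1*, the protease that *Pcolce* assists, fell (-0.59 on the log2 scale), as did *P4ha2*, a prolyl hydroxylase subunit (-1.03), and *Mia2*, a factor for export of large cargo (-0.69; adjusted p = 0.00399, 0.00177 and 0.00387 in that order, from edgeR). The other 19 tested genes were not called. The 7 called higher and the 3 called lower are to be read against the 14.1% and 9.84% of all tested genes so called.

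Of 11 collagen receptor genes, 8 were tested, and 4 were called higher and 1 lower, where 14.1% and 9.84% of all tested genes were called. *Ddr1*, a receptor tyrosine kinase activated by collagen, rose from 3.22 ± 2.19 to 29.6 ± 9.3 CPM (SD, n = 4; adjusted p = 0.000202 from edgeR). *Mrc2*, an endocytic collagen receptor, and *Lair1*, an inhibitory receptor of immune cells, rose by 1.41 and 0.78 on the log2 scale (adjusted p = 0.00064 and 0.0184 from edgeR). *Itga10*, a collagen-binding integrin subunit, fell (-1.25 on the log2 scale, edgeR adjusted p = 0.0133), and it passed the expression filter only through the FXRKO livers, so it too had to differ. Without FXRKO liver 2 or FXRKO liver 3, only 2 receptor genes were called higher, and *Lair1* lost its call in both fits (0.66 and 0.71 on the log2 scale).

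Markers of stellate cells, which make much of the hepatic matrix, differed between the same livers. In bulk liver, more cells of a type and more RNA per cell cannot be told apart. Of 11 stellate cell markers 9 were called higher and 0 lower, and their summed level was 120 to 137 CPM in FXRKO and 234 to 262 CPM in BCL6LKOFXRKO livers. Vascular smooth muscle markers, 2 of 3 tested of a list of 5 called higher, summed to 10.4 to 12.9 and 17.4 to 29.2 CPM. Endothelial markers, 3 of 10 called higher, summed to 195 to 266 and 284 to 388 CPM. None of these 3 sums overlapped between genotypes. Over all tested genes, 14.1% were called higher, and in 16.1% all BCL6LKOFXRKO livers lay above all FXRKO livers.

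Portal fibroblast markers, 1 of 5 tested of a list of 9 called higher, overlapped at 13.1 to 17.3 and 16.7 to 26.9 CPM, and macrophage markers, 2 of 9 called higher, overlapped at 336 to 467 and 423 to 749 CPM. Cholangiocyte markers, 2 of 4 tested of a list of 6 called higher, summed to 41.6 to 66.8 and 75.2 to 135 CPM without overlap. Most of that sum was *Spp1*, a secreted matrix protein that other cells also make, at 43.3 ± 7.5 and 87.1 ± 25 CPM (SD, n = 4), while *Sox9* stood at 4.36 ± 2.02 and 2.51 ± 0.696 CPM (SD, n = 4) and was not called. Of the 5 hepatocyte markers in the table, 2 were called higher and 1 lower, and their sum, most of it *Alb*, did not overlap either, at 56800 to 66300 and 147000 to 167000 CPM. These counts are to be read against the 14.1% of all tested genes called higher and the 9.84% called lower. The portal fibroblast and macrophage counts were near the former share. Of the called markers, *Thy1* (portal fibroblast) and *Krt19* (cholangiocyte) reached the level of the expression filter in 1 FXRKO and 4 BCL6LKOFXRKO livers. *Ccr2* (macrophage) did so in 2 and 4. They thus passed the filter through the group where they were high, and their calls are to be read with that limit. No marker in the count table was at 0 in all 8 livers. The part of these cell types in the collagen values was not tested.

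**Figure D4:**
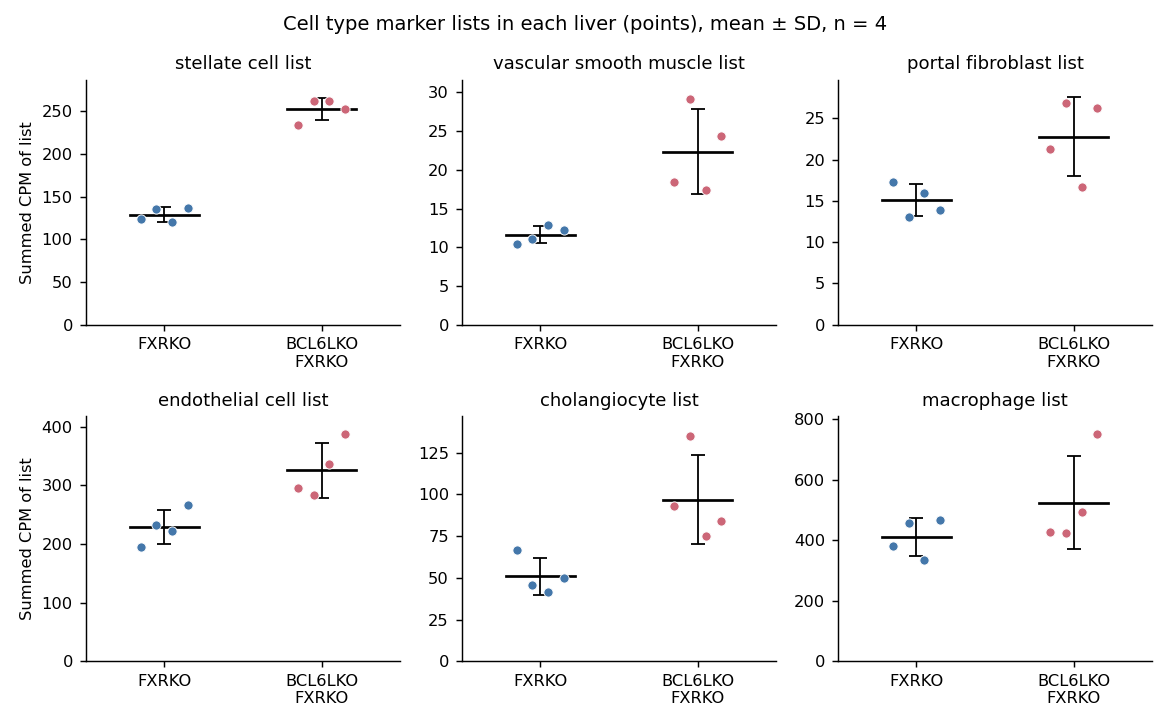
Summed level (CPM, each axis from 0) of 6 cell type marker lists in each liver, with the mean as a line and the SD as a bar (n = 4 in each genotype). The stellate cell sum is 120 to 137 in FXRKO and 234 to 262 in BCL6LKOFXRKO livers, and the portal fibroblast and macrophage sums overlap.

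Promoters were looked at because the genotypes differ in a DNA-binding repressor. RefSeq promoter windows, the 250 bases before the start in GRCm38 (mm10), matched 5 of the 7 genes, all but *Col22a1* and *Col12a1*. The letters TTCCTNGAA, a core of BCL6 sites, were searched on both strands and were in none of the 5 windows, against 1.31% of all 32851 windows. The wider palindrome TTCNNNGAA, bound by STAT factors and overlapping the former, was also in none, against 7.02%. No match says only that these letters are not in these windows. The GC box GGGCGG was found 4 times before *Col8a1* and 1 time each before *Col27a1* and *Col16a1*, and 32.7% of all windows hold it. The windows of *Col8a1*, the gene with the largest fold among those with a window, and of *Col27a1*, the gene called lower, are shown with GC boxes in capitals on either strand.
*Col8a1* chr16:57754738-57754987, minus strand: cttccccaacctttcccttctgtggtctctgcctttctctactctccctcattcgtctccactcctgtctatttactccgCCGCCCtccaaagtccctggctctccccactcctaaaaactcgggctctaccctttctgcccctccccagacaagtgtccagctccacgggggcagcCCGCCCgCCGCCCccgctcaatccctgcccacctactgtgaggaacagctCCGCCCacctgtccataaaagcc
*Col27a1* chr4:63215162-63215411, plus strand: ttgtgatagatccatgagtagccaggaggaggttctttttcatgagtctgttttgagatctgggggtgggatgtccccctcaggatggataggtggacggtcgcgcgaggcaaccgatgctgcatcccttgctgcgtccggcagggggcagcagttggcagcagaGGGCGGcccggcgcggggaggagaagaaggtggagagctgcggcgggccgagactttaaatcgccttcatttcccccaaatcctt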

How the data were processed

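Liver RNA of 4 FXRKO and 4 BCL6LKOFXRKO males was analyzed. Reads (single-end, 100 bp) were mapped by the authors to mm10 using STAR 2.5.2, with 4 mismatches allowed and reads of more than 1 location dropped. HOMER 4.10 then summed exon reads, and the deposited values are these counts, unnormalized, beside each transcript's length. The counts were fitted in R 4.3.3 with edgeR 4.0.16 (filterByExpr, TMM, robust quasi-likelihood test) on all 8 livers, with Benjamini-Hochberg adjustment over 12340 genes. Calls needed both an adjusted p below 0.05 and a log2 fold change beyond 0.5 in either direction. Standard errors from edgeR are the absolute log2 fold change divided by the square root of the quasi-likelihood F statistic. They are approximate, and for *Col8a1* and *Col22a1* they were smaller than those of DESeq2. Alternatives were DESeq2 1.42.0 (the tool of the study's methods), other scalings, filters and thresholds, and each liver left out. On counts simulated for these 12340 genes with 200 changed, edgeR recovered 86% and 5.49% of its calls were false. In the livers 2953 genes were called, and recovery and false calls with that many genes changed was not tested. The members and gene lists were chosen with earlier results of these data known. Besides the members, the text names for each list and direction the 3 called genes of lowest adjusted p, *Col8a2*, and the 2 genes nearest each member in profile (those of *Col27a1* are not reported here); *Bcl6* and *Nr1h4* are named as the targeted genes, and *Col18a1*, *Spp1* and *Sox9* were named after their values were seen. The livers carry separate labels, and p-values measure only the spread between them. No pair of them was within sampling noise (chi-square per degree of freedom 10 to 45.8).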

Additional observations from a re-analysis of the deposited data

Results flagged for a closer look

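In groups of 4 livers, 1 liver was set against the other 3 by its gap to the nearest of them over the range of the group, with Dixon's 95% critical value as the limit. Of 33 such comparisons 3 passed, and chance flags about 1 in 20. *Col15a1* passed in both genotypes. FXRKO liver 4 was at 18.6 CPM against 15.1 to 15.7 in the others, a ratio of 0.83, and BCL6LKOFXRKO liver 2 was at 25.2 CPM against 20 to 20.9, a ratio of 0.838. The summed CPM of hepatocyte markers in BCL6LKOFXRKO liver 2 was the other, at 167000 against 147000 to 149000, a ratio of 0.896.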

How the results depend on the processing

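No paired analysis was run because the labels give the genotypes no shared replicate numbers and name no litter, batch or day. Some mouse numbers in the sample titles are consecutive between genotypes. Pairs formed from them would not be unique, and no label says that neighbouring numbers share a litter or batch. Such a structure was not tested. Of 150 alternative counts of called genes, 140 stayed within 1.5 times the count of the main comparison. Total counts alone gave 2135 genes called lower against 1214 with TMM, and 37.2% of called genes higher against 58.9%, and it gave 2 collagen receptor genes called lower against 1. With no fold threshold 2 receptor genes were lower. With at least 10 counts in every liver 0 were, and 1 member was called higher, since only 3 of the 7 genes were then tested. Across fits without 1 liver, 0 to 1 members were called lower, 3 were called higher in every fit, and 2 to 4 receptor genes were called higher. Of 94 alternative log2 fold changes of the members, 90 kept direction and call, 3 lost the call (all of *Col27a1*) and 1 changed sign (*Col20a1*, 0.05 without FXRKO liver 2, in a range from -0.42 to 0.05 across fits without 1 liver). *Col8a1* ranged from 4.99 to 5.53, *Col16a1* from 0.85 to 1.19 and *Col27a1* from -1.11 to -0.74. Of 179 values of the other named genes, 177 kept both and 2, both of *Lair1*, lost the call. Where not stated, the cause was not tested. Low counts limit *Col12a1*, *Col20a1* and *Col8a2*.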

Other observations

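Genes with a profile most like each collagen were taken by the root mean square difference of log2 CPM over the 8 livers, each gene centred on its own mean. For genes with a large difference between genotypes, that difference dominates the measure. All 12340 tested genes were compared and entered the median. Predicted genes and pseudogenes (symbols starting with Gm and a digit, ending in Rik or holding -ps) were left out of the nearest genes. *Nt5e* (0.39) and *Adra2c* (0.44) were nearest to *Col8a1*, where the median gene was at 2.39. *Gpx3* (0.31) and *Sorcs2* (0.41) were nearest to *Col22a1*, with the median gene at 3.01. For *Col16a1* they were *Ccdc3* (0.15) and *Epb41l3* (0.16), with the median at 0.62. For *Col15a1* (*Srgap2*, 0.08, and *Prdx4*, 0.09), *Col12a1* (*Setmar*, 0.10, and *Abca1*, 0.11) and *Col20a1* (*Pde9a* and *Irak2*, both 0.16) the median gene was itself within 0.37, 0.51 and 0.49, so that likeness there is weak as a description. No other collagen chain was among these nearest genes.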
